A study of Mus musculus with 3 samples.

Results

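Regulators of G protein signalling (RGS proteins) were examined in brain cells of Apoe knockout mice through 7 genes, Rgs1, Rgs2, Rgs10, Rgs14, Rgs16, Rgs18 and Rgs19, out of 24 genes carrying an RGS symbol among the 32285 genes measured. The 7 genes were selected on their measured levels in these same libraries, so the levels given here describe the genes and carry no test. The cells came from brain and were sorted for intermediate CD45 together with CD11b, which selects mainly microglia, the macrophages that live in brain tissue. Droplet-based 3′ sequencing then counted each transcript by its unique molecular identifier (UMI). All mice lacked Apoe and were sampled at day 4. The groups were sham induction with PBS (sham), induction of NMOSD with a control peptide (control peptide), and induction of NMOSD with the peptide APOE130-149 (APOE130-149), where NMOSD commonly stands for neuromyelitis optica spectrum disorder, in which antibodies damage astrocytes. Each group had 1 library, with 4 mice pooled in it. Allele, strain, sex and age of the mice were not given in the sources used here.

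A G protein-coupled receptor acts by loading GTP onto the alpha subunit of its G protein. RGS proteins bind the loaded subunit, speed up the hydrolysis of GTP and so shorten the signal, and most of them act on the Gi and Gq classes. In leukocytes and microglia these receptors include those for chemokines, nucleotides, complement fragments and prostaglandins. Several RGS genes are themselves induced when cells are activated, while others are held at steady levels in particular blood cell lineages.

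Levels are given as CPM, UMIs of a gene per 1000000 UMIs of the cells in question. A 3′ tag is counted once per transcript molecule, so CPM was not divided by gene length, and the counting of intronic reads was not given in the sources used here. Brackets hold 95% intervals that cover counting error only, since with 1 library per group the spread between mice and between preparations was not measured. The libraries held 32712199, 61469677 and 32060750 UMIs in sham, control peptide and APOE130-149, and 4231, 5011 and 2025 cells were kept. Cells were assigned to classes by counting detected marker genes, which gave 3801, 4354 and 1681 microglia, with medians of 7299, 7687 and 9832 UMIs. The defining microglial marker Sall1, a transcription factor, stood at 441, 426 and 430 CPM in microglia. Ly6g, Mrc1 and Ccr2, which define neutrophils, border-associated macrophages and monocytes, were at or below 15.8 CPM there. The full lists of these classes, of 12, 11 and 8 markers, gave more in microglia. They summed to 377, 439 and 350 CPM for neutrophils, 276, 235 and 277 CPM for border-associated macrophages and 46.0, 79.9 and 67.6 CPM for monocytes. These markers also set the classes, so their levels are not an independent check. Apoe itself gave 81.0, 106 and 116 CPM in microglia, and because the deleted part of the gene is not named these 3′ tags do not check the genotype. Barcodes shared between libraries numbered 9 for sham and control peptide, 3 for control peptide and APOE130-149, and 0 for sham and APOE130-149.

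Rgs2, Rgs1 and Rgs18 lie close together on chromosome 1 of GRCm38, all on the minus strand, at 143999338 to 144004161, 144242296 to 144249242 and 144752683 to 144775435. This stretch of 776 kb also holds Rgs13 and Rgs21, which had 0 UMIs in the microglia of each library. Rgs16 is on the same chromosome at 153740349 to 153745468, where it overlaps an antisense gene. Rgs10 is on chromosome 7 at 128373621 to 128418758, Rgs14 on chromosome 13 at 55369732 to 55384687, and Rgs19 on chromosome 2 at 181688419 to 181693977. Rgs10 also overlaps another annotated gene, and the use of strand in counting was not given in the sources used here, so UMIs of Rgs10 and Rgs16 may include some from their partners.

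The promoters of Rgs2, whose level differed between microglia low and high in immediate early genes, and of Rgs10, whose level hardly did, are shown for comparison. RefSeq promoter windows (GRCm38.p6) matched 4 of the 7 genes, Rgs2, Rgs10, Rgs16 and Rgs19. The 238 bases shown lie before the RefSeq start and overlap no annotated exon; those of Rgs10 fall in an intron of a longer Rgs10 transcript. They lie at chr1:144004162-144004399 and chr7:128418185-128418422, both on the minus strand, and are printed 5′ to 3′ with matches on either strand to the motifs named after them in capitals.
Rgs2: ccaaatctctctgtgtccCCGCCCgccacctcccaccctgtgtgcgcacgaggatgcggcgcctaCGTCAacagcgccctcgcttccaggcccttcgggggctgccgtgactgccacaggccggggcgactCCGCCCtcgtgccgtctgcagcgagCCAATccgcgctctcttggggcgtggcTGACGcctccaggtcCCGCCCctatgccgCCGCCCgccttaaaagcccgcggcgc
Rgs10: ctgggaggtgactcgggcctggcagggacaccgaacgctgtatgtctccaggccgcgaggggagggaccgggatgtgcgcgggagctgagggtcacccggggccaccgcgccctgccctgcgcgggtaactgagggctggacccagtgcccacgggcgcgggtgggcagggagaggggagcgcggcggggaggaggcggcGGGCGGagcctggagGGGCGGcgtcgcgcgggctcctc
The Rgs2 window held 2 matches to TGACG, the core of the site of cAMP-responsive factors, against none in the Rgs10 window, and 16.7% of 32851 promoter windows of the same length held at least 1. It also held 1 match to CCAAT, which 32.9% of windows held. The Sp1-type motif GGGCGG occurred 4 times in the Rgs2 window and 2 times in that of Rgs10, and 31.02% of windows held it. Neither window held the AP-1 motif TGANTCA, which 6.54% of windows held. Neither held TATAAA, present in 12.01% of windows, or a CArG box, the motif of serum response factor, present in 1.43%. No match says only that these letters are not in this window. These are matches of letters and do not show binding.

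In microglia the members fell into 3 levels (the plot of microglial levels shows all 7). Rgs10 and Rgs2 were abundant in every library, and Rgs1 in both NMOSD libraries. Rgs19 lay between 87.3 and 96.1 CPM, with Rgs1 close to it in sham at 84.0 CPM. Rgs14, Rgs18 and Rgs16 were below 10 CPM. The order Rgs10 above Rgs2 above Rgs1 held in every library, with no overlap of their intervals, while Rgs1 was below Rgs19 in sham and above it in both NMOSD libraries.

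**Figure D1:**
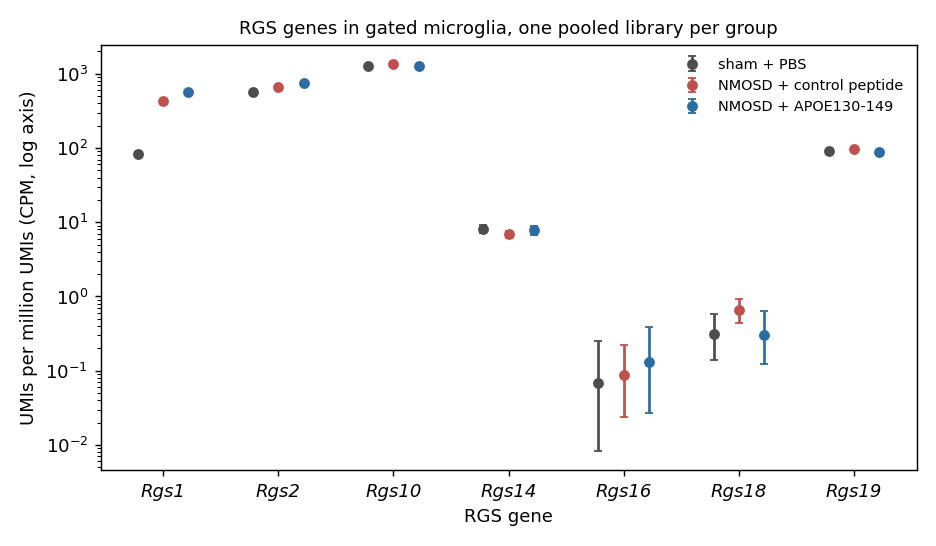
Level of each RGS gene in gated microglia (vertical axis, CPM, log scale) in the 3 libraries, with exact 95% Poisson intervals as bars. Rgs1 moved from 84.0 CPM in sham to 427 and 566 CPM in the NMOSD libraries, while Rgs10 and Rgs19 stayed close to their sham levels.

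Rgs1, a small RGS protein known for damping chemokine receptor signals in lymphocytes, was the member that differed most between the libraries. Its microglial level was 84.0 CPM [80.7 to 87.4] in sham, 427 CPM [421 to 433] with the control peptide and 566 CPM [556 to 576] with APOE130-149. Both NMOSD libraries were thus far above sham, and the APOE130-149 library was the highest. The ratio of control peptide to sham was 5.08 [4.87 to 5.30], that of APOE130-149 to sham 6.74 [6.45 to 7.04], and that of APOE130-149 to control peptide 1.33 [1.30 to 1.36]. The ratios share libraries and are not independent of each other. Ranked by ratio among all genes with at least 10 CPM, Rgs1 was number 17 from the top for control peptide against sham, number 15 for APOE130-149 against sham and number 94 for APOE130-149 against control peptide.

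Rgs2, a small RGS protein that acts mainly on Gq, stood at 568 CPM [559 to 576] in sham, 669 CPM [661 to 676] with the control peptide and 742 CPM [731 to 753] with APOE130-149. The order of the libraries was that of Rgs1, but the steps were small. The control peptide library came to 1.18 [1.16 to 1.20] times sham and the APOE130-149 library to 1.31 [1.28 to 1.33] times sham.

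Rgs10, the most abundant member and a protein made of little more than the RGS domain, is known as a restraint on inflammatory gene expression in microglia. It stood at 1283 CPM [1270 to 1296] in sham, 1346 CPM [1335 to 1356] with the control peptide and 1264 CPM [1250 to 1279] with APOE130-149. The highest and the lowest library differed by less than 10%. The control peptide to sham ratio was 1.05 [1.04 to 1.06] and the APOE130-149 to sham ratio 0.986 [0.971 to 1.001].

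Rgs19, also called GAIP, which binds Gi alpha subunits on vesicle membranes, gave 92.3 CPM in sham, 96.1 CPM with the control peptide and 87.3 CPM with APOE130-149. Its control peptide to sham ratio of 1.04 had an interval of 0.993 to 1.09, which includes 1. With APOE130-149 it was 0.908 [0.861 to 0.957] of the control peptide level.

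The remaining members were scarce in microglia. Rgs14, which carries RGS and Ras-binding domains, stood at 8.13 [7.13 to 9.23], 6.91 [6.17 to 7.71] and 7.75 [6.65 to 8.98] CPM, with overlapping intervals. Rgs18, known from platelets and other blood cells, had 9, 30 and 7 UMIs in the microglia of sham, control peptide and APOE130-149, and of the 30 UMIs with the control peptide 5 came from 1 cell. Rgs16, an activation-induced gene of lymphocytes, had 2, 4 and 3 UMIs, levels of 0.0686, 0.0866 and 0.131 CPM at or near the limit that a count of 0 allows (3 UMIs, or 0.103, 0.0650 and 0.131 CPM). No difference in Rgs16 could be detected at this depth.

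A gene was taken as apart between a pair of libraries when it reached 10 CPM in either and its ratio was at least 1.5 in either direction. For control peptide against sham, 4 members reached 10 CPM (Rgs1, Rgs2, Rgs10 and Rgs19) and 1 of these, Rgs1, was higher, against 1.55% of all 8498 genes higher and 1.01% lower. For APOE130-149 against sham Rgs1 was again the 1 member apart, with 1.60% of 8493 genes higher and 0.977% lower. For APOE130-149 against control peptide 0 of 4 members were apart, where 0.382% of 8373 genes were higher and 0.191% lower. As the members were chosen with these contrasts in view, nothing is read from their count.

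Counted per cell, the difference in Rgs1 was both in the share of microglia with a UMI and in the number of UMIs in cells that had any. To compare libraries of unequal depth, 3000 UMIs were drawn from each cell, leaving out 934, 335 and 140 microglia with fewer. Rgs1 was then detected in 14.4% [13.2 to 15.8] of 2867 sham microglia, 49.8% [48.3 to 51.4] of 4019 with the control peptide and 59.8% [57.3 to 62.3] of 1541 with APOE130-149. Without drawing, the shares were 24.2%, 64.4% and 77.9%. Choroid plexus epithelial cells, which are not blood-derived, carried an Rgs1 UMI in 1 of 25 cells with the control peptide (median 5019 UMIs) and 1 of 6 cells with APOE130-149. Of the same 25 cells 6 had Rgs2 and 11 had Rgs10.

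Rgs1 was unevenly spread over microglia. The 10% of sham microglia with most Rgs1 UMIs held 76.3% of them, against 47.3% with the control peptide and 43.5% with APOE130-149. For Rgs10 the 10% of cells with most of it held 28.2%, 30.6% and 30.5%. The share held by these cells also moves with the mean level, which was lowest in sham for Rgs1. After drawing 3000 UMIs the variance of Rgs1 over its mean was 2.62, 3.31 and 3.54, against 1.24, 1.28 and 1.20 for Rgs10 and 1.44, 1.62 and 1.61 for Rgs2. Rgs1 thus varied between cells by more than Rgs10 in each library, and the plot of UMIs per cell shows its long tail. In sham 0.0698% of microglia had 10 or more Rgs1 UMIs of the 3000, against 0.821% with the control peptide and 2.14% with APOE130-149.

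**Figure D2:**
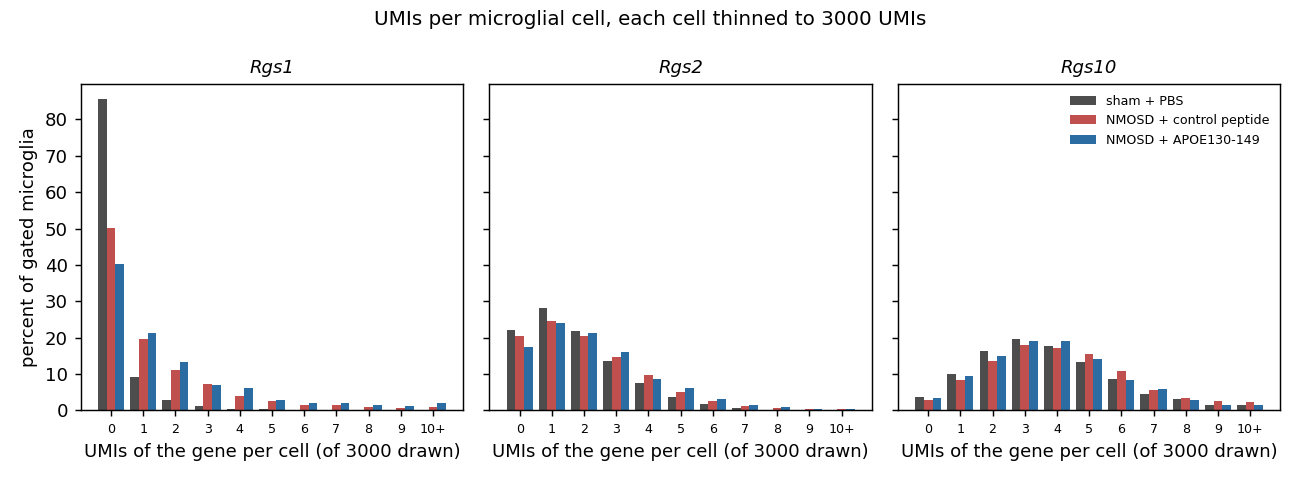
Percent of gated microglia (vertical axis) with 0 to 9, or 10 and more, UMIs of Rgs1, Rgs2 and Rgs10 (horizontal axis) after 3000 UMIs were drawn from each cell, by library. Rgs1 was absent from 85.6% of sham microglia, 50.2% with the control peptide and 40.2% with APOE130-149, while the Rgs10 bars of the 3 libraries nearly coincide.

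Rgs2 and Rgs10 were found in most microglia of every library. Rgs2 was detected in 77.9% [76.3 to 79.4], 79.5% [78.2 to 80.7] and 82.7% [80.7 to 84.5] of the thinned cells of sham, control peptide and APOE130-149. Rgs10 was detected in 96.4%, 97.1% and 96.6%. Rgs19 was detected in 24.5%, 25.6% and 23.9%, with overlapping intervals, and Rgs14 in 2.34%, 1.79% and 1.82%.

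Microglia with Rgs1 had more Rgs2. In the thinned cells the mean of Rgs2 was 2.15 UMIs in sham cells with Rgs1 and 1.76 in those without, 2.36 against 1.80 with the control peptide, and 2.48 against 1.91 with APOE130-149. Rgs10 gave 3.89 against 3.76, 4.18 against 4.11 and 3.82 against 3.903 UMIs, which shows no common direction. Cells of 1 library share their preparation, so these are descriptions of each library.

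Rgs1 and Rgs2 also went with the immediate early genes, transcription factor and feedback genes such as Fos, Jun and Egr1 that cells switch on within minutes of a stimulus, and also during tissue dissociation. The summed level of 22 such genes in microglia was 2437 CPM in sham, 9718 CPM with the control peptide and 13717 CPM with APOE130-149, the same order of libraries as Rgs1. When the microglia of each library were ranked by this sum and cut into 3 equal parts, Rgs1 stood at 44.6 CPM in the bottom and 141 CPM in the top part of sham, a ratio of 3.16 [2.82 to 3.54]. With the control peptide it stood at 180 and 616 CPM, a ratio of 3.42 [3.27 to 3.57], and with APOE130-149 at 339 and 753 CPM, a ratio of 2.22 [2.12 to 2.33]. Rgs1 was thus higher in the top part within every library. The top-to-bottom ratio of Rgs2 was 1.54 [1.48 to 1.60], 1.97 [1.91 to 2.03] and 1.81 [1.74 to 1.88], and fell to 1.40 in sham when only Fos, Jun, Junb and Egr1 were used for ranking and to 1.46 when each cell was thinned to 3000 UMIs. For Rgs10 it was 1.004, 1.10 and 1.03, and for Rgs19 1.07, 1.10 and 1.08. Rgs14, below 10 CPM, gave 1.67 [1.17 to 2.40], 1.35 [1.01 to 1.80] and 1.13 [0.751 to 1.71].

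The libraries were then compared within 5 bands of immediate early gene level. The bands had the same limits in each library, at 1413, 3088, 7638 and 12752 immediate early gene UMIs per 1000000. The summed level still differed within a band, most in bands 3 and 5 counted from the lowest. In sham, control peptide and APOE130-149 it was 4298, 5662 and 5478 CPM in band 3. In band 5 it was 27426.5, 18219.7 and 18689.8 CPM. The part of this in the Rgs1 and Rgs2 ratios was not tested. From the lowest to the highest band sham had 1683, 1564, 454, 41 and 59 cells, control peptide 233, 333, 1254, 1517 and 1017, and APOE130-149 51, 70, 259, 409 and 892. Within the bands Rgs1 stood above sham in both NMOSD libraries, but by less than over all microglia. The control peptide to sham ratio was 1.30 [1.09 to 1.56], 1.66 [1.48 to 1.86], 1.71 [1.56 to 1.87], 2.79 [2.22 to 3.56] and 1.83 [1.59 to 2.13] from the lowest band up, against 5.08 over all microglia. The APOE130-149 to control peptide ratio of Rgs1 was 1.55 [1.08 to 2.19] and 1.32 [1.09 to 1.59] in the lowest bands and 1.05 [0.974 to 1.12], 1.01 [0.966 to 1.05] and 1.10 [1.06 to 1.13] in the others.

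Rgs2 ran the other way within most bands. Its level in sham was 472, 606, 674, 700 and 1059 CPM from the lowest band up. With the control peptide it was 217, 373, 573, 723 and 884 CPM, and with APOE130-149 238, 317, 495, 691 and 879 CPM. The control peptide to sham ratio was 0.460 [0.420 to 0.503], 0.615 [0.578 to 0.653], 0.850 [0.810 to 0.891], 1.03 [0.921 to 1.16] and 0.835 [0.768 to 0.909], so that 4 of 5 bands were lower than sham although Rgs2 over all microglia was higher. The NMOSD cells of the lowest band also had less of the microglial marker P2ry12, a nucleotide receptor, at 1291 CPM with the control peptide and 1256 CPM with APOE130-149 against 2551 CPM in sham. In band 2 these were 1796 and 1688 CPM against 2785 CPM, and in band 3 2471 and 2231 CPM against 2489 CPM. In bands 4 and 5 P2ry12 stood above sham in both NMOSD libraries. The part of these P2ry12 differences in the Rgs2 and Rgs10 levels was not tested. Rgs10 was also below sham in the lowest bands with the control peptide, with ratios of 0.778 [0.745 to 0.812] and 0.881 [0.850 to 0.912], and above it in the next, at 1.10 and 1.16.

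**Figure D3:**
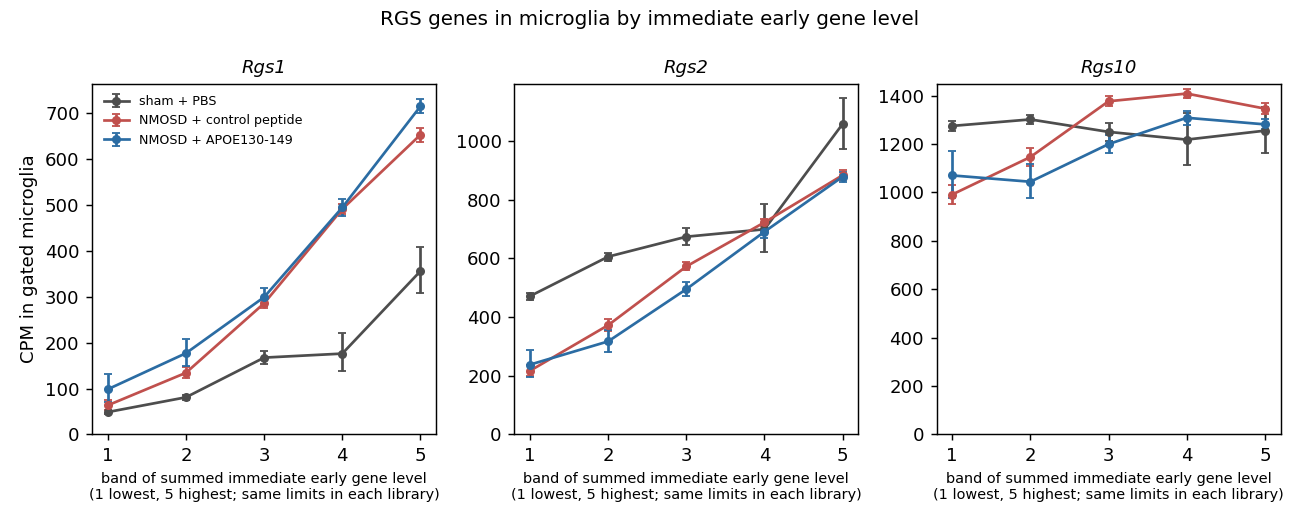
Level of Rgs1, Rgs2 and Rgs10 (vertical axes, CPM from 0) in gated microglia by band of summed immediate early gene level (horizontal axis, 1 lowest to 5 highest, common limits), by library, with exact 95% Poisson intervals. Rgs1 reached 716 CPM in the highest band of APOE130-149 and 356 CPM in that of sham, whereas Rgs2 in the lowest band was 472 CPM in sham and 217 CPM with the control peptide.

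Depth within a library went with smaller steps. From the shallowest to the deepest of 3 equal parts of microglia, Rgs1 stood at 65.8, 82.2 and 87.9 CPM in sham, 444, 443 and 416 CPM with the control peptide and 661, 585 and 539 CPM with APOE130-149. In each part the NMOSD libraries stood above sham. The parts were cut within each library and are not matched in depth between libraries. Their median UMIs from the shallowest up were 1564, 7299 and 11359 in sham and 4964.5, 7689 and 15643 with the control peptide. With APOE130-149 they were 6027, 9836.5 and 20780.

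Outside microglia the sorted cells held few cells of other classes, and counts there are small. Gates gave 20, 23 and 18 border-associated macrophages (macrophages of the meninges and vessels), 59, 81 and 43 neutrophils and 29, 42 and 23 monocytes in sham, control peptide and APOE130-149. Cells with a Sall1 UMI were kept out of these classes. This left out 45 of 65, 145 of 168 and 65 of 83 border-associated macrophages in sham, control peptide and APOE130-149. It also left out 36 of 95, 65 of 146 and 28 of 71 neutrophils, and 5 of 34, 34 of 76 and 10 of 33 monocytes. Each level is also given with such cells kept, an alternative chosen after the data were seen. P2ry12 nevertheless stood at 462, 567 and 419 CPM in border-associated macrophages, 344, 216 and 97.2 CPM in neutrophils and 36.9, 75.6 and 110 CPM in monocytes, against 2636, 2431 and 2659 CPM in microglia. The part of microglial RNA in the members' levels there was not tested other than through the ratios to P2ry12.

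Among the myeloid classes, Rgs18 was highest in neutrophils and next highest in monocytes in each library, but not confined to them. In neutrophils it stood at 149 CPM [115 to 191] in sham, 92.8 CPM [71.0 to 119] with the control peptide and 140 CPM [109 to 177] with APOE130-149. In monocytes it stood at 63.3, 48.7 and 56.2 CPM with overlapping intervals. Both classes stood far above microglia, where Rgs18 was below 1 CPM: the neutrophil to microglia ratio was at least 90.9 by the lower bound of the interval in each library. In border-associated macrophages it had 1, 7 and 1 UMIs, or 6.24, 40.9 and 8.90 CPM. With the control peptide this was 63.0 [23.3 to 146] times the microglial level. The 21 T and NK cells of the control peptide had 5 UMIs of Rgs18, and the 8 of APOE130-149 had 0. With Sall1-bearing cells kept, Rgs18 stood at 13.97, 11.4 and 8.43 CPM in border-associated macrophages, 120.0, 55.3 and 72.3 CPM in neutrophils and 53.9, 20.3 and 35.8 CPM in monocytes.

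Rgs14 was also higher in neutrophils and monocytes than in microglia. In border-associated macrophages it had 2, 1 and 0 UMIs. It stood at 71.2 CPM [48.0 to 102], 51.8 CPM [35.8 to 72.3] and 56.7 CPM [37.7 to 82.0] in neutrophils and at 31.7, 33.6 and 43.5 CPM in monocytes. The neutrophil to microglia ratio was 8.75 [5.78 to 12.8], 7.49 [5.10 to 10.7] and 7.32 [4.73 to 10.9]. The intervals of the 3 libraries overlapped in each class. With Sall1-bearing cells kept, Rgs14 stood at 13.1, 10.4 and 8.43 CPM in border-associated macrophages, 49.1, 28.9 and 31.1 CPM in neutrophils and 31.1, 20.8 and 39.1 CPM in monocytes.

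Rgs19 differed less between classes than Rgs14 or Rgs18. In neutrophils it stood at 145, 132 and 124 CPM, 1.57 [1.20 to 2.02], 1.38 [1.10 to 1.70] and 1.42 [1.08 to 1.83] times the level in microglia. In monocytes it stood at 71.2, 131 and 120 CPM. Border-associated macrophages gave 12, 9 and 4 UMIs, with intervals of the ratio to microglia that include 1. With Sall1-bearing cells kept, Rgs19 stood at 87.1, 83.0 and 83.0 CPM in border-associated macrophages, 136, 119 and 109.6 CPM in neutrophils and 70.4, 107 and 116 CPM in monocytes.

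**Figure D4:**
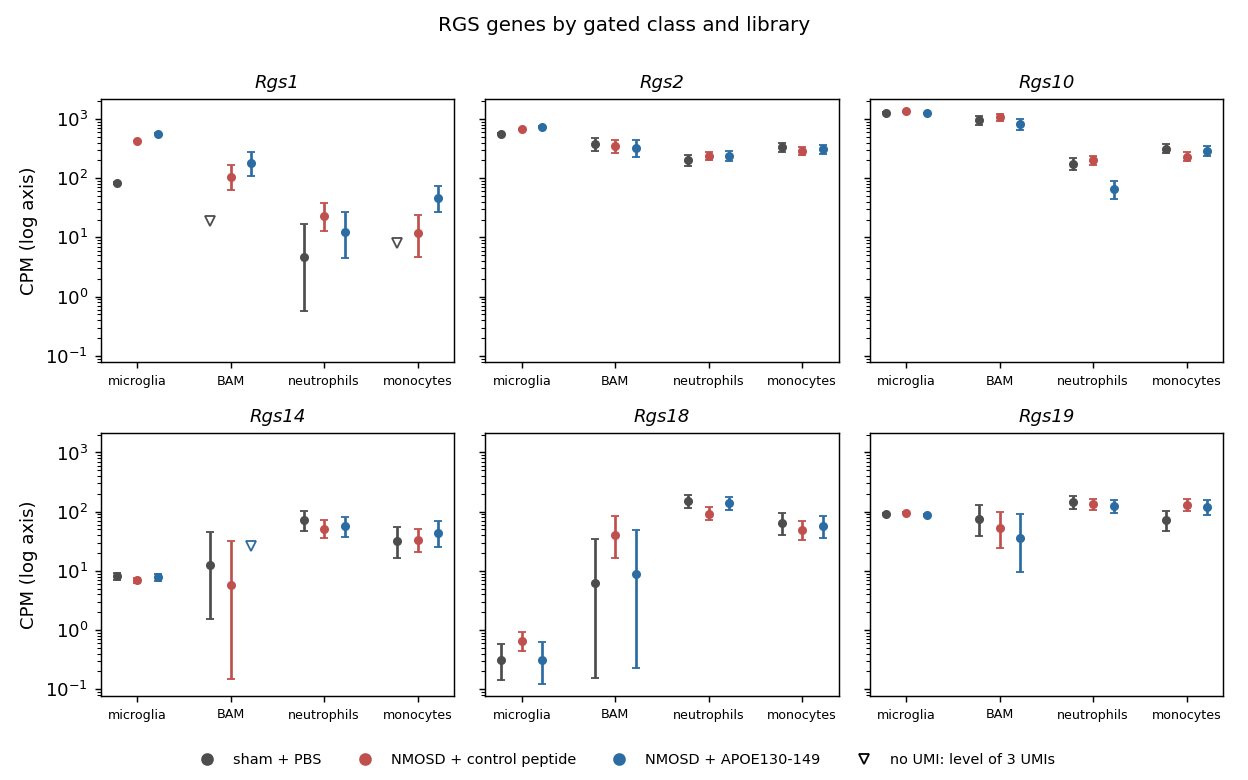
Level of 6 RGS genes (vertical axis, CPM, log scale) by gated class and library, with exact 95% Poisson intervals; open triangles mark the level of 3 UMIs where none was counted, and BAM stands for border-associated macrophages. Rgs14 and Rgs18 were highest in neutrophils, and Rgs1, Rgs2 and Rgs10 in microglia.

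Among the myeloid classes, Rgs10 was highest in microglia and border-associated macrophages, but not confined to them. T and NK cells had 44 and 5 UMIs of Rgs10 with the control peptide and APOE130-149. Per 100 P2ry12 these came to 629 [281 to 1654] and 62.5 [16.1 to 217]. Border-associated macrophages had 948 CPM [804 to 1112], 1070 CPM [920 to 1236] and 819 CPM [660 to 1005], between 0.648 and 0.795 of the microglial level. Monocytes had 317, 232 and 291 CPM. Per 100 UMIs of P2ry12 there were 205, 189 and 196 of Rgs10 in border-associated macrophages and 857, 307 and 265 in monocytes, against 48.7, 55.3 and 47.5 in microglia. Neutrophils had 176, 201 and 64.8 CPM, or 51.0, 93.0 and 66.7 per 100 P2ry12, close to microglia in sham. In neutrophils of APOE130-149, Rgs10 and P2ry12 were both lower than in the other libraries. With Sall1-bearing cells kept, Rgs10 stood at 1139.8, 1263 and 1188 CPM in border-associated macrophages, 400.3, 831 and 649.8 CPM in neutrophils and 425, 859.8 and 505 CPM in monocytes.

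Rgs2 was lower in the other classes than in microglia, but well represented. Border-associated macrophages had 374, 345 and 321 CPM, monocytes 335, 287 and 309 CPM, and neutrophils 199, 237 and 239 CPM. Within each class the intervals of the 3 libraries overlapped, so with these gates the small rise seen in microglia was not detectable in the others at this depth. With Sall1-bearing cells kept, Rgs2 stood at 384, 605 and 624 CPM in border-associated macrophages, 290.5, 538 and 557 CPM in neutrophils and 336, 536 and 432 CPM in monocytes. The intervals of both NMOSD libraries then lay above that of sham in border-associated macrophages and neutrophils. In monocytes only that of the control peptide did. The part of microglial RNA in this was not tested.

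In the other myeloid classes Rgs1 was below its level in microglia of the same library. Border-associated macrophages had 0 UMIs in sham, which allows up to 18.7 CPM, 105 CPM [62.4 to 166] with the control peptide and 178 CPM [109 to 275] with APOE130-149, where 3 of 18 cells held the 20 UMIs. Neutrophils had 2, 15 and 6 UMIs, or 4.74, 22.8 and 12.2 CPM, and per 100 P2ry12 they had 1.38, 10.6 and 12.5, with intervals that hold the 3.19, 17.6 and 21.3 of microglia. Monocytes had 0, 7 and 18 UMIs. Border-associated macrophages of the NMOSD libraries had 18.6 [10.6 to 30.9] (control peptide) and 42.6 [23.9 to 73.2] (APOE130-149) per 100 P2ry12. With Sall1-bearing cells kept, Rgs1 stood at 47.7, 353 and 551 CPM in border-associated macrophages, 10.1, 212 and 275 CPM in neutrophils and 16.6, 205 and 168 CPM in monocytes. These levels were more than 1.5 times those without such cells in every library and class. With stricter gates, which allow no defining marker of another class, border-associated macrophages of the control peptide had 4 UMIs, or 34.0 CPM, and those of APOE130-149 217 CPM. Monocytes of APOE130-149 then had 4 UMIs, or 14.02 CPM, in place of 46.0 CPM.

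Lymphocytes also carried Rgs1. The gate for T and NK cells held 21 cells with the control peptide, 8 with APOE130-149 and 0 in sham. Rgs1 stood at 224 CPM [158 to 309] and 341 CPM [211 to 521] there, in 17 of 21 and 7 of 8 cells. P2ry12 was at 42.5 CPM in those of the control peptide and 129.9 CPM in those of APOE130-149. Per 100 UMIs of P2ry12 they had 529 [233 to 1405] and 262.5 [112 to 685] of Rgs1, against 17.6 and 21.3 in microglia. Sham had no such cells, so no comparison with sham was possible.

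Over the 12 sums of 4 classes in 3 libraries, the genes whose log2(CPM + 1) followed each member most closely were looked up among 8255 candidate genes. For Rgs1 these were Dyrk1a (Pearson r = 0.95), a protein kinase, Pla2g4a (r = 0.95), the cytosolic phospholipase A2 that releases arachidonic acid, and Rab5a (r = 0.92), a GTPase of early endosomes. For Rgs2 they were Skil, Wasf2 and Lpcat3 (r from 0.96 to 0.97), for Rgs10 Zbtb4, Mef2c and Pros1 (r = 0.99 each), for Rgs18 Lilr4b, Gmfg and Samd9l (r = 0.97 to 0.98), and for Rgs19 Gabarapl2, Trak2 and Stk16 (r from 0.92 to 0.94). Rgs14, which did not itself reach the level asked of the candidates (10 CPM from at least 50 UMIs in a sum), gave Capn1, Ezr and Kctd20 (r = 0.97 each). The sums share libraries and differ widely in depth, and no test was made. Rgs16 was too scarce for this.

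Of the 17 other genes with an RGS symbol, 2 reached 10 CPM in microglia. Rgs3 gave 22.3 CPM in sham, 27.1 CPM with the control peptide and 33.0 CPM with APOE130-149, and Rgs7bp, an anchor of RGS proteins, at 17.5, 19.3 and 17.9 CPM. Neither passed the fold of 1.5 in any comparison, though Rgs3 came to 1.48 [1.33 to 1.65] for APOE130-149 against sham.

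Genes of the partners of RGS proteins were counted by the same fold of 1.5, which 1.55% of all genes passed upward and 1.01% downward for control peptide against sham, so that counts of 0 in lists this short are near the background. Of 13 alpha subunits 8 reached 10 CPM and 0 passed 1.5-fold in any comparison, with a median log2 ratio of -0.00 for control peptide against sham, where all genes had -0.08. Gnas, the Gs subunit that raises cAMP, stood at 667, 789 and 850 CPM. The other outer ratios for control peptide against sham were Gna11 at 1.19, and Gnai3 at 0.907 and Gna12 at 0.894. Of 16 beta and gamma subunits 7 reached 10 CPM and 0 passed, from Gnb2 at 1.18 and Gng10 at 1.12 down to Gnb1 at 0.902 and Gng2 at 0.889. Of 13 receptor kinases, arrestins and modulators found by symbol 10 reached 10 CPM and 0 passed, with Gpsm3 at 1.08, Gipc1 at 1.07 and Ric8b at 0.820. The lowest ratio to sham in the last list was that of Arrb2, the arrestin that ends receptor signals, at 246, 196 and 198 CPM.

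Among 39 G protein-coupled receptors, 26 reached 10 CPM for control peptide against sham and 1 was at least 1.5-fold higher, 0 lower, beside 1.55% and 1.01% of all genes. This was Ccrl2, a chemerin-binding receptor, at 19.4, 33.7 and 38.8 CPM. For APOE130-149 against sham 3 of 27 were higher, Ccrl2, the adrenergic receptor Adrb1 and the prostaglandin receptor Ptger4, and 0 lower, beside 1.60% and 0.977% of all genes. For APOE130-149 against control peptide 0 of 27 passed in either direction, beside 0.382% and 0.191%. Ptafr, the receptor of platelet-activating factor, had the lowest control peptide to sham ratio, 0.737 [0.708 to 0.767]. Of the immediate early genes at 10 CPM or more, 17 of 17 were higher with the control peptide than in sham, beside 1.55% of all genes. With APOE130-149 against control peptide 7 of 18 were higher, beside 0.382%. As this list was chosen with earlier results of these data known, nothing is read from its counts. The ratios of these genes to sham with the control peptide ran from 1.65 for Atf3 to 10.9 for Klf4.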

How the data were processed

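The deposited matrices hold UMI counts per gene and barcode, not normalized, 1 per library. The submitters' processing notes list Cell Ranger 5.0.1, Seurat 4.3.0 and mm10, but version 7.0.1 of cellranger stands in the matrices, per the file headers. Intron and strand settings were not given in the sources used here. Cells were kept from 500 detected genes upward and up to 10% mitochondrial UMIs. Microglia had UMIs of at least 6 of 9 markers and passed no other gate. Border-associated macrophages needed 5 of 11, neutrophils 7 of 12 and monocytes 4 of 8, with no Sall1 UMI. These thresholds were set after marker counts were seen. Doublets were not called, and cells passing several gates (99, 330 and 170) were left out. Sums per class gave CPM with exact Poisson, exact conditional and exact Clopper-Pearson 95% intervals. Only the conditional intervals of ratios were tested on simulated data. Those counts were Poisson and held no added spread between cells. With 1 library per group no p-value was computed. The members and lists were chosen with earlier results of these data known. Named genes were the 7 members, for each the 3 most alike genes, and in each list the outer ratios (2 at the top, 2 at the bottom) among genes reaching 10 CPM, of which the text gives mainly those for control peptide against sham. Alternatives covered cell filters, gates, scaling (edgeR 4.0.16 TMM factors, median of ratios), thinning and ranking. Python 3.11.15, numpy 2.4.6, scipy 1.17.1, pandas 2.3.3 and matplotlib 3.10.9 were used. Coordinates came from GENCODE vM21 on GRCm38, the assembly of mm10.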

Additional observations from a re-analysis of the deposited data

How the results depend on the processing

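Rgs1 was the 1 member at least 1.5-fold apart for control peptide and for APOE130-149 against sham, and 0 members were apart for APOE130-149 against control peptide, under other cell filters, gates, scalings, thinning, a fold of 2 and removal of cells with most UMIs. Without the filter on low levels the count was 2 in each comparison, which added Rgs18 for control peptide against sham, Rgs16 for APOE130-149 against sham, and Rgs16 and Rgs18 for APOE130-149 against control peptide. These genes had at most 30 UMIs in the microglia of a library. The Rgs1 ratio ran from 4.81 to 5.43 for control peptide against sham, from 6.50 to 7.30 for APOE130-149 against sham and from 1.30 to 1.36 for APOE130-149 against control peptide. In immediate early gene ranking 2 members, Rgs1 and Rgs2, were at least 1.5-fold higher in the top part in all 3 libraries, and 1 member, Rgs1, when parts were ranked by Fos, Jun, Junb and Egr1 alone and 1 when each cell was thinned to 3000 UMIs, since Rgs2 in sham came to 1.40 and 1.46. Rgs14, Rgs18 and Rgs19 were higher in another class than in microglia in all 3 libraries under stricter gates and, in an alternative chosen after the data were seen, without the rule on Sall1. No paired analysis was possible because each group had 1 library. Depth limits statements on Rgs16 and on the small classes.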
